A study of Mus musculus with 6 samples.

Results

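BCL2 family genes encode the proteins that decide whether a cell's mitochondria release the signal for apoptosis. The 10 genes considered were Bcl2, Bcl2l1, Mcl1, Bax, Bak1, Bid, Bad, Bcl2l11, Bbc3 and Pmaip1, and every array probe annotated to one of these symbols, or to a synonym of the same gene, was taken. This gave 28 of the 45281 probes on the array, for 9 of the 10 genes. Bax, which encodes an effector of membrane permeabilization, was named by no probe in the annotation used here, and its level was not analysed here. Cells sorted from mouse bone marrow gave total RNA, which was biotin-labelled and hybridised to Illumina bead arrays, 1 sample to an array. Monocyte-like precursors of granulocytes (MLPG, n = 3) were the Ly6C high cells, and granulocytic progenitors (GP, n = 3) were the Ly6C low cells. Ly6C is a surface antigen of monocytes. The labels give no strain, age or treatment and do not say that each replicate was a separate animal. The p-values therefore reflect variation among these 6 samples alone, part of which could be technical. In bulk samples, fewer cells of a type and less RNA per cell cannot be told apart.

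As background, survival proteins of the family (BCL2, BCL-XL, MCL1) bind and restrain BAX and BAK, the proteins that open the outer mitochondrial membrane. BH3-only proteins (BID, BAD, BIM, PUMA, NOXA) carry death signals by occupying the survival proteins or by activating BAX and BAK. In the neutrophil lineage MCL1 is needed for survival, and mature neutrophils are short-lived cells that die readily by this route.

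Intensities are linear and were normalized before deposit to the same distribution on all arrays, so that a probe can be compared between arrays but not with another probe. Differences are log2, MLPG minus GP, with 95% intervals from limma. A gene was called at an adjusted p under 0.05 in a fit over 15440 features, each gene standing by its brightest probe. All 9 genes with a probe passed the filter that keeps the brighter part of the probes, with a mean above the median of all probes.

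None of the 9 genes passed this test between MLPG and GP. The count was 0 of 9, against 0.512% of all features, and 1 of the 9, Bid, had an unadjusted p under 0.05, against 14.7% of all features. Of the 9, 4 had a higher mean log2 value in MLPG and 5 a lower one, with a median difference of -0.01, against 0.01 over all features. By the brightest probe, the intervals of 8 of the 9 genes excluded a 2-fold difference in either direction, and those of 6 excluded a 1.5-fold difference. Bcl2 was among the 6, but the interval of its second brightest probe, 0.69-fold to 1.66-fold in the fit over all probes, held a 1.5-fold difference. Bcl2l1, also among the 6, was dim, and background compresses differences of dim probes. Pmaip1 was the gene whose interval held a 2-fold difference. A second fit took the replicate number as a block and called 4.08% of all features. It also called 0 of the 9 genes, with a smallest adjusted p of 0.11.

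**Figure D1:**
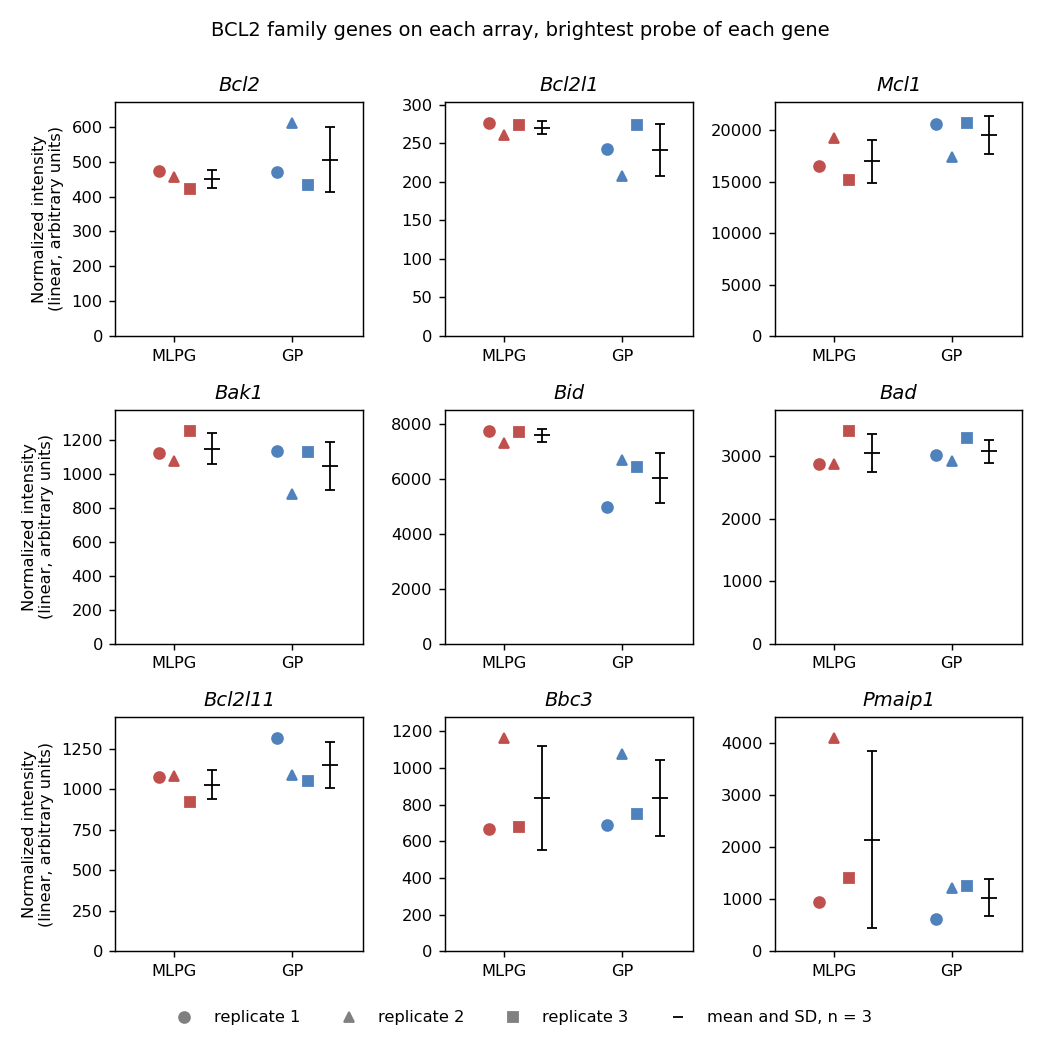
Normalized intensity (linear, arbitrary units) of the brightest probe of each of the 9 measured genes on the 3 MLPG and 3 GP arrays, with a marker for each replicate number and bars for the mean and SD. The groups overlap in every panel but that of Bid, and the MLPG replicate 2 array stands alone at 4094 for Pmaip1.

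Among survival genes, Mcl1, whose protein turns over fast, had an intensity of 16509, 19263 and 15160 on MLPG arrays 1 to 3, against 20572, 17449 and 20699 on GP arrays 1 to 3. The groups overlapped because MLPG array 2 lay above GP array 2. The mean was 16978 ± 2091 in MLPG and 19573 ± 1841 in GP (SD, n = 3), and the difference was -0.21, with an interval of -0.49 to 0.07 (adjusted p = 0.48).

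Bcl2, the founding member of the family, had 9 probes, of which 6 passed the filter. The brightest read 472, 457 and 422 in MLPG, against 471, 611 and 434 in GP, so that GP array 2 alone stood above the rest. Its difference was -0.15, with an interval of -0.46 to 0.16 (adjusted p = 0.66). The other 5 probes that passed differed by between -0.08 and 0.10, so probes of this gene disagreed in sign around 0. The brightest probe is annotated to another RefSeq transcript of the gene than these 5.

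The second brightest Bcl2 probe read 311, 471 and 330 on MLPG arrays 1 to 3, against 287, 576 and 239 on GP arrays 1 to 3. It was highest on array 2 in both groups, as were 4 of the 6 probes that passed, which share a target, and 14% of all features. The summed intensity of 8 monocyte markers was 58013, 55852 and 51001 in MLPG, against 11757, 33076 and 21049 in GP, and so was also highest on array 2 among the GP arrays. The summed intensity of 5 eosinophil markers was 3911, 7143 and 4531 in MLPG, against 54449, 126736 and 112752 in GP, highest on array 2 in both groups. The part of these markers in the Bcl2 values was not tested.

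Bcl2l1, which encodes BCL-XL, read 276, 260 and 274 in MLPG, against 243, 207 and 274 in GP. The MLPG values lay close together and GP array 3 fell among them. The mean was 270 ± 8.52 in MLPG and 241 ± 33.5 in GP (SD, n = 3), a difference of 0.17 with an interval of -0.10 to 0.44 (adjusted p = 0.55). A second, dimmer Bcl2l1 probe read 236, 223 and 223 in MLPG, against 187, 165 and 218 in GP, with no overlap. It differed by 0.27, with an adjusted p of 0.44 over all probes, and 2 still dimmer probes, below the filter, differed by -0.04 and 0.01. All Bcl2l1 probes lay close to the median of the array, 179.3, where background in the intensity compresses differences. With the lowest value of each array subtracted, the second probe differed by 0.42 and was still not called.

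Of the effectors, Bak1, which encodes BAK, read 1123, 1076 and 1256 in MLPG, against 1134, 885 and 1130 in GP. GP array 2 was the lowest of the 6, and the other GP arrays fell within the MLPG range. The difference was 0.14, with an interval of -0.14 to 0.42 (adjusted p = 0.66).

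Among BH3-only genes, Bid had the smallest p of the 9 in the fit without the block, while with the block Pmaip1 had the smallest (unadjusted p = 0.011, against 0.018 for Bid). BID is cut by caspase-8 and so links death receptors to mitochondria. Its brightest probe read 7763, 7318 and 7715 in MLPG, against 4986, 6680 and 6426 in GP. Each MLPG array lay above each GP array. Groups without overlap, in either direction, were found for 1 of the 9 genes and for 20.4% of all features. The mean was 7599 ± 245 in MLPG and 6031 ± 913 in GP (SD, n = 3), and MLPG over GP was 1.27-fold, with an interval of 1.04 to 1.55, or 0.34 on the log2 scale (unadjusted p = 0.023, adjusted p = 0.26). GP array 1 was far below the other GP arrays, and without it the difference was 0.21 (adjusted p = 0.46). The second Bid probe read 237, 208 and 240 in MLPG, against 190, 206 and 192 in GP, again without overlap, and differed by 0.22 (adjusted p = 0.46 over all probes).

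Named genes with the values most like those of Bid over the 6 arrays were Gcdh, Cdk4, Ext2, Ostc and Erh, with Pearson correlations of log2 values between 0.991 and 0.996. This describes these 6 arrays only, and 612 of 11347 named genes had a correlation with Bid above 0.9. Cdk4, a kinase of the G1 phase, read 6365, 6202 and 6572 in MLPG, against 3655, 5451 and 5251 in GP (adjusted p = 0.25). Like Bid, it was lowest on GP array 1.

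Pmaip1, which encodes the MCL1-binding protein NOXA, had the largest difference and the widest spread. Its brightest probe read 952, 4094 and 1405 in MLPG, against 617, 1224 and 1248 in GP. MLPG array 2 was far above the other 5, and MLPG array 1 lay below GP arrays 2 and 3. The mean was 2150 ± 1698 in MLPG and 1030 ± 358 in GP (SD, n = 3), a difference of 0.85 with an interval of -0.33 to 2.02 (adjusted p = 0.50, and 0.11 with the block). Without MLPG array 2 the difference was 0.24 (adjusted p = 0.82), and without MLPG array 1 it was 1.29 (adjusted p = 0.42).

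The second Pmaip1 probe read 386, 974 and 427 in MLPG, against 254, 383 and 353 in GP. The groups did not overlap on it, though MLPG array 1 exceeded GP array 2 by little, and the difference was 0.74 (adjusted p = 0.44 over all probes). With the replicate block this was the 1 probe of the 28 that was called, at an adjusted p of 0.028, against 2.73% of all probes. It stayed called in the block when any 1 pair was left out, with a difference of 0.44 without pair 2 (adjusted p = 0.014). These smaller fits were chosen after seeing the data and reuse the same arrays, so they are no independent evidence. The share of all probes called in them is not given here. In same-numbered arrays the brightest Pmaip1 probe was higher in MLPG than in GP in 3 of 3 pairs, by 0.63, 1.74 and 0.17 on the log2 scale. The labels do not state a pairing by number, which was inferred from the same arrays, and the p-values of that fit may be too low for this reason. The third Pmaip1 probe lay below the filter and differed by -0.02.

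Bbc3 encodes PUMA, which like NOXA is known as a transcriptional target of the tumour suppressor p53. Its brightest probe read 666, 1161 and 677 in MLPG, against 688, 1075 and 751 in GP. Array 2 was the highest in both groups, and the group means were close, at 835 ± 283 in MLPG and 838 ± 208 in GP (SD, n = 3). The difference was -0.03, with an interval of -0.59 to 0.54 (adjusted p = 0.97), and without GP array 2 it was 0.17. The other 2 Bbc3 probes were dim and differed by -0.01 and -0.06, and neither was highest on array 2 of both groups.

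The p53 target Cdkn1a, a cell cycle inhibitor, was chosen after its values were seen and read 1143, 2579 and 1260 in MLPG, against 1523, 2266 and 1777 in GP. It too was highest on array 2 in both groups and did not pass the test between them (difference -0.24, adjusted p = 0.77). By the brightest probe, array 2 was the highest in both groups for 1 of the 9 genes, Bbc3, and for 14% of all features. The summed intensity of 8 genes of handling stress, of which Fos and Egr1 were the brightest, was 45079, 72274 and 51512 in MLPG, against 49198, 60453 and 52356 in GP, highest on array 2 in both. Of the 8, 5 were highest on array 2 of both groups and 3 were not: Ier2 was lowest there in both, and Hspa1a and Hspa1b were highest on array 3 in both. The part of handling in the Pmaip1 and Bbc3 values was not tested.

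**Figure D2:**
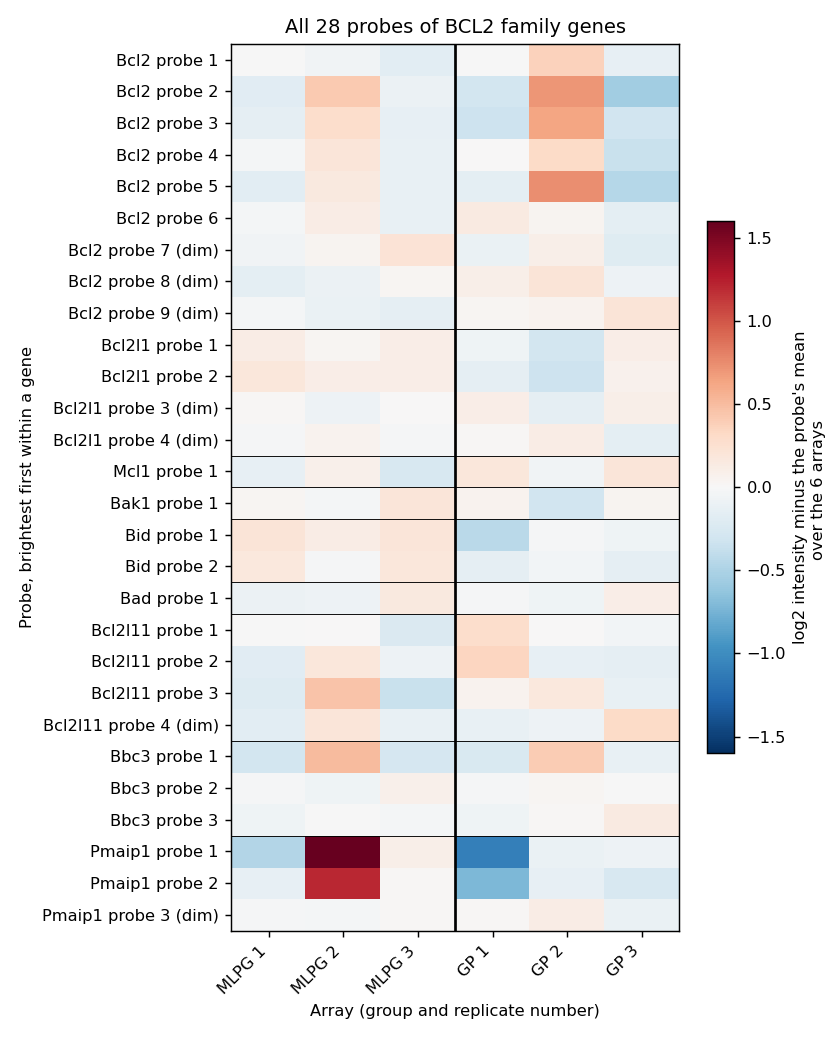
All 28 probes of the 9 genes (rows, brightest first within a gene; dim marks probes below the filter) on 3 MLPG and 3 GP arrays (columns), coloured by log2 intensity minus the probe's mean over the 6 arrays. Both brighter Pmaip1 probes are highest on MLPG array 2, and 4 of the 6 brighter Bcl2 probes are highest on array 2 of both groups.

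Bcl2l11, which encodes BIM, read 1074, 1084 and 925 in MLPG, against 1315, 1088 and 1049 in GP. The groups overlapped because MLPG arrays 1 and 2 exceeded GP array 3, and the difference was -0.16, with an interval of -0.43 to 0.11 (adjusted p = 0.59). All 4 Bcl2l11 probes had differences below 0, between -0.16 and -0.04. Bad, whose protein is held inactive by phosphorylation from growth factor signals, read 2873, 2883 and 3412 in MLPG, against 3019, 2927 and 3295 in GP. Array 3 was the highest in both groups, and the difference was -0.01, with an interval of -0.25 to 0.22 (adjusted p = 0.97).

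Over all 28 probes, 21 passed the filter, 10 of them with a difference above 0 and 11 below. Without a filter, 0 of the 28 were called in limma, against 0.426% of all probes, and 4 had an unadjusted p under 0.05, against 10.1%. The groups did not overlap on 5 of the 28, against 15% of all probes. Those 5 were both Bid probes, the second probes of Pmaip1 and Bcl2l1, and the dimmest Bcl2 probe, which differed by -0.19.

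**Figure D3:**
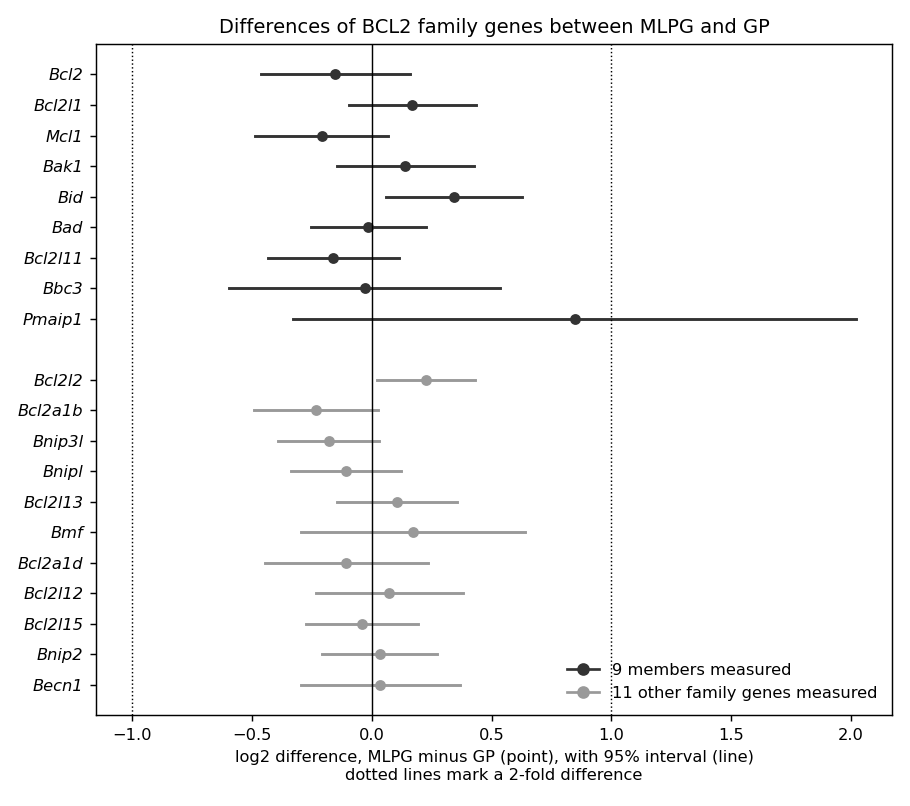
Log2 difference, MLPG minus GP (points), with 95% interval (lines) for the 9 measured genes and 11 other genes of the BCL2 family or bearing its name. Dotted lines mark a 2-fold difference, which lies inside the interval of Pmaip1 alone among the 9.

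Of 19 other genes of the family or bearing its name, 11 were measured in the fit and 0 were called, with 1 at an unadjusted p under 0.05. Over all features, 0.512% were called and 14.7% had such a p. The groups did not overlap on 3 of the 11, against 20.4% of all features. Differences of the 11 lay between -0.23 and 0.23, with a median of 0.03. Bcl2l2, which encodes the survival protein BCL-W, read 3104, 3164 and 3069 in MLPG, against 2493, 2626 and 2874 in GP, without overlap (difference 0.23, adjusted p = 0.30). The mean of the Bcl2l2 probes differed by 0.085 (adjusted p = 0.71). Bcl2a1b, a survival gene of neutrophils, read 386, 422 and 404 in MLPG, against 550, 444 and 438 in GP, also without overlap (difference -0.23, adjusted p = 0.39). The Bcl2a1 genes of the mouse are near-identical copies whose probes may read one another, so this value is uncertain. Bnip3l encodes a mitochondrial protein that guides removal of mitochondria. It read 12646, 12435 and 11021 in MLPG, against 13857, 13825 and 13155 in GP, also without overlap (difference -0.18, adjusted p = 0.41). The BH3-only gene Bmf differed by 0.17 (adjusted p = 0.75).

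Downstream of BAX and BAK, 12 of 16 listed genes were measured, 7 with a difference above 0 and 5 below. Limma called 0, against 0.512% of all features, and 2 had an unadjusted p under 0.05, against 14.7%. The median difference of the 12 was 0.08, against 0.01 over all features. Cycs encodes cytochrome c, which leaves the mitochondria to activate caspases, and read 14944, 14981 and 15873 in MLPG, against 10693, 12803 and 11028 in GP. The MLPG arrays all lay above the GP arrays, with a difference of 0.41 (adjusted p = 0.13). Without GP array 2 it was 0.49 and called (adjusted p = 0.049), the 1 of 14 alternative settings with a call for Cycs. That setting also raised the calls over all features from 79 to 348. The mean of the Cycs probes differed by 0.08 (adjusted p = 0.71). Birc2, which encodes an inhibitor of apoptosis that marks signalling proteins with ubiquitin, read 4227, 4580 and 4049 in MLPG, against 5494, 5987 and 4824 in GP (difference -0.34, adjusted p = 0.22). Casp6, an effector caspase gene, differed by 0.28 (adjusted p = 0.40), and Dffa, which encodes the inhibitor of the apoptotic nuclease, by 0.15 (adjusted p = 0.52).

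In the death receptor pathway, which acts on BID through caspase-8, 9 of 12 listed genes were measured, with a median difference of 0.05. Limma called 0, against 0.512% of all features, and 1 had an unadjusted p under 0.05, against 14.7%. Cflar, which encodes the caspase-8 inhibitor FLIP, read 2813, 2266 and 2058 in MLPG, against 3493, 2849 and 2775 in GP. Within each number MLPG was the lower, while MLPG array 1 exceeded GP array 3, and the difference was -0.36 (adjusted p = 0.31, and 0.066 with the block). Differences were 0.22 for the necroptosis kinase Ripk3 (adjusted p = 0.45), 0.18 for the receptor Tnfrsf1a (adjusted p = 0.49) and -0.17 for the receptor Fas (adjusted p = 0.64).

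Of 27 genes listed for regulating the family, 22 were measured, 14 with a difference above 0 and 8 below and a median of 0.07. Limma called 0, against 0.512% of all features, and 4 had an unadjusted p under 0.05, against 14.7%. The groups did not overlap on 5 of the 22, against 20.4% of all features. Usp9x, whose product removes ubiquitin from MCL1, read 641, 643 and 576 in MLPG, against 493, 427 and 546 in GP, without overlap (difference 0.35, adjusted p = 0.23). Fbxw7, a ubiquitin ligase component that targets MCL1, read 1267, 1134 and 1244 in MLPG, against 1474, 1460 and 1313 in GP, also without overlap (difference -0.22, adjusted p = 0.33). The means of the probes of Usp9x and Fbxw7 differed by 0.17 and -0.14. Foxo3, a transcription factor that induces Bcl2l11 and Bbc3, differed by -0.30 (adjusted p = 0.24). Stat3, a factor downstream of granulocyte colony-stimulating factor, differed by -0.25 (adjusted p = 0.24).

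**Figure D4:**
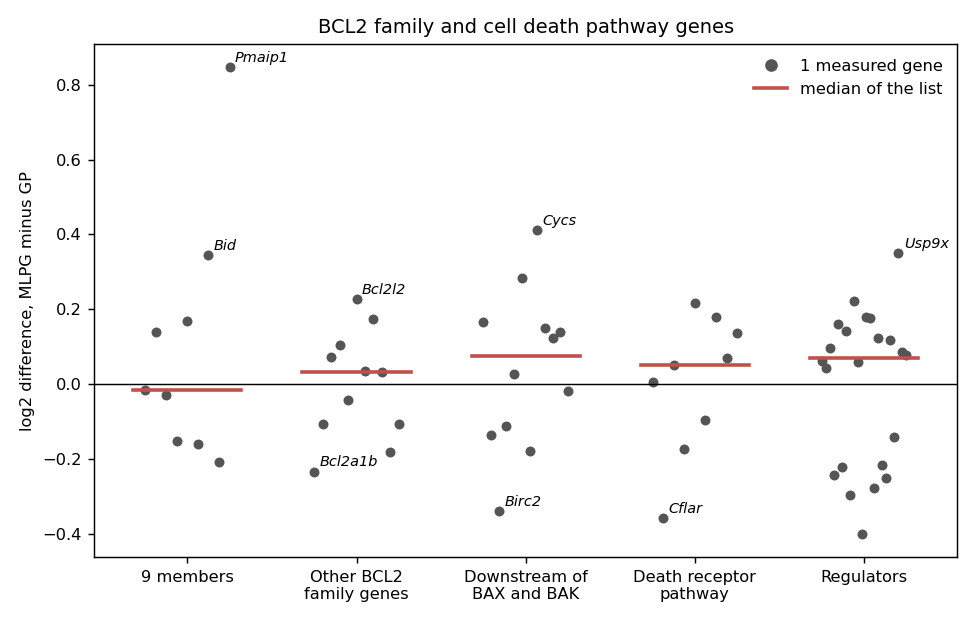
Log2 difference, MLPG minus GP, of each measured gene (points) in the BCL2 family and in the pathway lists, with the median of each list (lines). Medians lie between -0.01 and 0.08, and Pmaip1, at 0.85, is the highest point.

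Marker genes of the sorts were read on the same arrays. All 8 monocyte markers had higher values in MLPG, with 1 called, all 7 late neutrophil markers had lower ones, with 3 called, and all 5 eosinophil markers had lower ones, with 4 called. Among markers of other marrow cells, summed intensities of 5 T and NK cell markers were 789 to 845 in MLPG, against 984 to 1143 in GP, and those of 4 erythroid markers were 773 to 2847 in MLPG, against 3145 to 7224 in GP. Summed B cell markers were 2130 to 2200 in MLPG, against 1728 to 2108 in GP (5 genes, 3 higher in MLPG and 2 lower, 0 called). Cd79b was by far the brightest of these 5 (adjusted p = 0.38). Summed megakaryocyte markers were 950 to 1237 in MLPG, against 1447 to 1884 in GP (5 genes, 1 higher in MLPG and 4 lower, 0 called). Of these 19 markers, 12 had a mean above the median of all probes. Summed intensities of 4 basophil and mast cell markers were 1114 to 1184 in MLPG, against 1589 to 2605 in GP, and all 4 had lower values in MLPG, with Gata2 called (adjusted p = 0.038). Their part in the values of the family genes was not tested. On the first principal component of all features GP array 1 lay farthest from the MLPG arrays.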

How the data were processed

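The authors deposited a normalized intensity for each probe, on a linear scale. Per the submitters' processing notes GenomeStudio was used; no version, background step or normalization is stated there. In these intensities all 6 columns had the same median (179.3), minimum (88.2) and maximum (71670). A second deposited table heads 12 columns by numbers that match no sample's labels, and it was not used, so detection p-values and normalization of raw signals (neqc) played no part.

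Symbols were taken from the annotation of the platform, with 1 for 34885 probes, several for 18 and none for 10378. Gene identifiers of 34807 probes matched a RefSeq table of GRCm38.p6, and 0 symbols changed. Coordinates are left out because the array's build is unknown here. Probes with a mean log2 value above the median of all probes, 7.48, were kept, and the brightest stood for its gene. MLPG was compared with GP by limma 3.58.1 in R 4.3.3 (lmFit, eBayes, Benjamini-Hochberg), over 15440 features and, without a filter, over all probes. The number of arrays limits the precision.

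Same-numbered MLPG and GP arrays deviated from their group means together, with correlations of 0.376, 0.297 and 0.468 over all features, each above 0.1, so a model with replicate as a block was fitted as well. The labels state no pairing. The members and lists were chosen with earlier results of these data known. Besides all probes of the 10 genes, the 4 genes with the smallest p were named from each other list, and for Bid the 5 named genes most correlated with it. From the list of other family genes any could be named. Cdkn1a, Dusp6 and Acod1 were named outside these rules, after their values were seen.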

Additional observations from a re-analysis of the deposited data

How the results depend on the processing

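With 14 alternative settings, none of the 9 genes was called under any, and Bad and Bbc3 were the ones whose difference changed sign. The median difference of the 9 lay between -0.04 and 0.11, above 0 in 5 of the 14 settings, each of which left out 1 array, and below 0 in 9. Array weights moved the Pmaip1 difference to 0.53, and with the mean of its probes Bcl2 differed by -0.02. Leaving out 1 array gave differences of -0.096 to 0.035 for Bad and -0.29 to 0.17 for Bbc3. The number of features called was 79, against 146 without the filter on dim probes, 220 with array weights, 630 with the replicate block, and 2 to 348 without 1 array; the cause was not tested. Over all probes it was 193, against 76 with the lowest value subtracted, 1237 with the block and 25 to 572 without 1 array. With the block no measured gene of the BCL2 family or of the pathway lists gained a call. The second Pmaip1 probe did, also when pair 1, 2 or 3 was left out, which was chosen after seeing the data (adjusted p between 0.0016 and 0.028). Bcl2 and Bcl2l1 fell below the stricter filter on dim probes and have no value there. Dim probes are limited by background left in the intensities, which compresses their differences.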

Other observations

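Pmaip1 was one of 4 features, of 15440, whose log2 value on MLPG array 2 exceeded the mean of MLPG arrays 1 and 3 by at least 1.82. The others were Dusp6, a phosphatase gene induced by ERK signalling, Acod1, which encodes the enzyme that makes itaconate, and a probe without a symbol, all chosen after their values were seen. Dusp6 read 4976, 14219 and 3115 in MLPG, against 6560, 7716 and 4806 in GP. Acod1 read 292, 1196 and 215 in MLPG, against 707, 1176 and 528 in GP. Both were also highest on array 2 in GP, whereas Pmaip1 in GP was about as high on array 3 as on array 2, at 1248 and 1224.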
